A study of Homo sapiens with 8 samples.

Results

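PNRC1 and PNRC2 are paralogous human genes on chromosomes 6 and 1 that encode small proline-rich coactivators of nuclear receptors. Their members here are the entries of the RFX7 peak lists whose summit lay within 50 kb of either end of one of these genes. There were 4 such entries among 1127, 1 at each gene in each of the lists (505 entries for DMSO and 622 for Nutlin-3a). The genes were selected on the strength of their peaks (fold enrichment and −log10 q) in both lists, so these values are a description and were not tested.

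The lists come from ChIP-seq, in which DNA bound by a protein (here RFX7) is pulled down with an antibody and sequenced, in HCT116, a colorectal carcinoma cell line of human origin with working p53. Cells received 10 µM Nutlin-3a, which blocks the p53 inhibitor MDM2, or the solvent DMSO alone, for 24 h. There were 2 RFX7 ChIP and 2 input samples (chromatin without immunoprecipitation) per treatment, 8 in all, and the design asked where RFX7 binds and how this compares after Nutlin-3a. The deposited data are 1 peak list per treatment with no value per sample and no read depth, so no difference between treatments can be set against replicate error.

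PNRC1 and PNRC2 bind nuclear receptors and raise the transcription these receptors drive. Both are also known from RNA metabolism: PNRC2 joins the nonsense-mediated decay factor UPF1 to the decapping complex of DCP1A and DCP2, and PNRC1 has been linked to decapping proteins and to ribosomal RNA processing in the nucleolus. RFX7 is a winged-helix transcription factor of the RFX family. RFX proteins recognise the X-box, a pair of inverted half-sites, and RFX7 has been described as a factor that acts downstream of p53.

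The stretches of 250 bases before to 50 after each RefSeq transcript start (GRCh38.p14, plus strand, both genes found in the table) are shown because the peak covered this stretch at one paralogue and missed it at the other. Capitals mark the RFX half-site core GTTGCC or GTTGCT on either strand (AGCAAC is GTTGCT read on the other strand) and the CCAAT box, the binding motif of NF-Y, on either strand (ATTGG is its reverse complement).
PNRC2, chr1:23959578-23959877: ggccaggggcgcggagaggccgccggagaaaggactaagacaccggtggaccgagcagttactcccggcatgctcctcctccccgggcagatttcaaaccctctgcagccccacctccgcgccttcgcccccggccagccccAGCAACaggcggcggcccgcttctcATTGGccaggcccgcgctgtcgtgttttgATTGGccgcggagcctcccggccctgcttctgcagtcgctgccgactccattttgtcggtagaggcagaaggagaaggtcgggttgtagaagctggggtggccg
PNRC1, chr6:89080501-89080800: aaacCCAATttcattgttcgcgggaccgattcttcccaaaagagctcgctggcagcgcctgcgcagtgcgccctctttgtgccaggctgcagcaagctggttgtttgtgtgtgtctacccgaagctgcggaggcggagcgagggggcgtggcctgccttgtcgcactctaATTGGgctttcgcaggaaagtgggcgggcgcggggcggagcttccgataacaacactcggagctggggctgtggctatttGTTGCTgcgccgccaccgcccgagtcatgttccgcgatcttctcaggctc

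At PNRC2 the peak sat on the promoter. The DMSO entry covered chr1:23959475-23960017, 543 bp wide, and ran from 353 bp before to 189 bp after the transcript start. The Nutlin-3a entry covered chr1:23959259-23960211, 953 bp wide, and ran from 569 bp before to 383 bp after it. All 300 bases of the promoter stretch printed above lay under both entries. The deposited summits were 328 bp (DMSO) and 244 bp (Nutlin-3a) upstream of the transcript start at 23959828. The RefSeq extent of the gene begins 664 bp before that start, so both summits also lay inside the gene by its outermost ends, 336 and 420 bp from its end at 23959164.

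At PNRC1 the peak lay inside the gene and off the promoter stretch. The DMSO entry covered chr6:89081438-89082047 (610 bp) and the Nutlin-3a entry chr6:89081455-89082086 (632 bp). They began 687 and 704 bp after the transcript start at 89080751 and ended 1296 and 1335 bp after it, within a gene of 4410 bp. None of the 300 promoter bases lay under either entry. The summits were 822 bp (DMSO) and 732 bp (Nutlin-3a) into the gene. The annotation used gives gene extents and starts but no exons, so exon or intron is not stated. Of the summits within 1 kb of a transcript start of a coding gene, 8 of 91 (DMSO) and 6 of 121 (Nutlin-3a) lay 700 bp or more downstream, as both PNRC1 summits did.

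**Figure D1:**
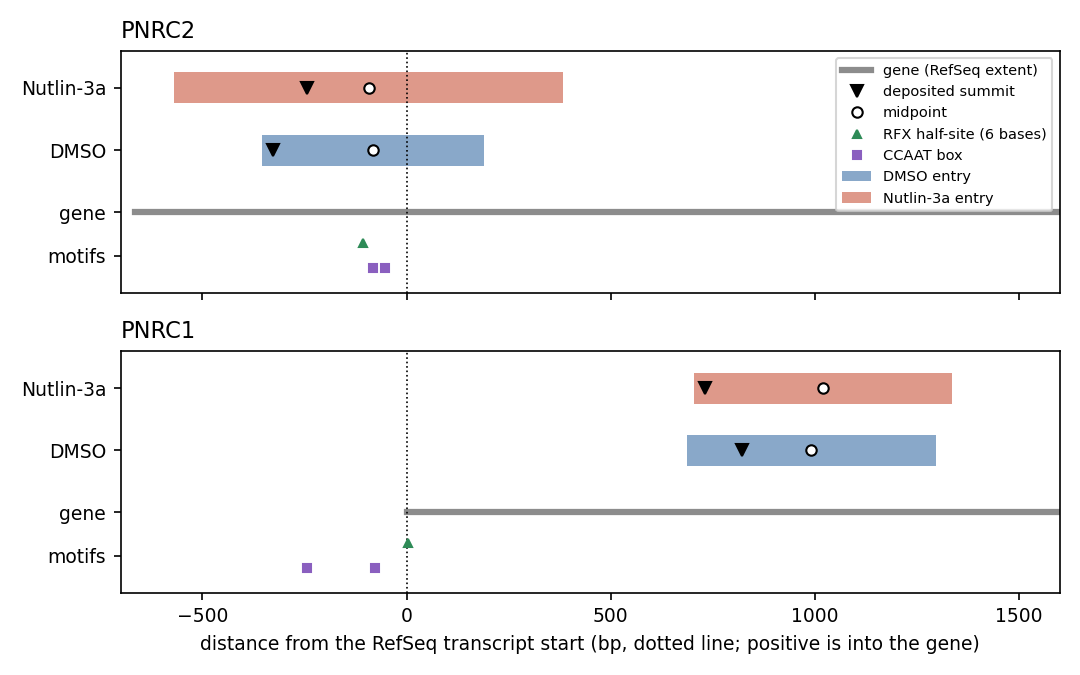
Peak entries at PNRC2 (top) and PNRC1 (bottom) against distance from the RefSeq transcript start in bp, with the gene extent in grey, deposited summits as triangles, midpoints as circles and motif matches of the promoter stretch below the gene. The PNRC2 entries span the start, while those of PNRC1 begin 687 and 704 bp after it.

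The entries of each gene were centred, by their midpoints, on nearly the same position under both treatments. The PNRC1 entries shared 593 bp, which is 97.2% of the DMSO entry and 93.8% of the Nutlin-3a entry, and their left edges lay 17 bp apart and their right edges 39 bp apart. The PNRC2 entries shared 543 bp, the whole of the DMSO entry and 56.98% of the Nutlin-3a entry, which reached 216 bp farther on the left and 194 bp farther on the right. Midpoints lay 28 bp (PNRC1) and 11 bp (PNRC2) apart. Deposited summits lay farther apart, by 90 and 84 bp. Among the 101 pairs of overlapping entries within 5 kb of an end of a coding gene, the Nutlin-3a entry was the wider one in 90, PNRC1 and PNRC2 among them. Over these pairs the median gap was 104 bp between summits and 50 bp between midpoints. In 58 of the 101 the summits lay 84 bp or more apart, so the summit gaps of the PNRC genes were ordinary.

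Both peaks stood alone. No other entry lay within 100 kb of either gene in either list. From the PNRC1 summit, the next entry on the chromosome was 27198.4 kb away in the DMSO list and 20359.2 kb away in the Nutlin-3a list. From the PNRC2 summit it was 4287.8 kb away in the DMSO list and 785.3 kb away in the Nutlin-3a list. A summit within 50 kb in both lists was found for 340 of 20037 protein-coding genes (1.7%). In the DMSO list alone this share was 2.03% and in the Nutlin-3a list 3.04%. Since PNRC1 and PNRC2 were chosen for their peaks, nothing is read from their standing among these genes.

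By −log10 q, the authors' measure of how improbable a peak is under the background, the PNRC1 entry had 223.4 (DMSO) and 223.95 (Nutlin-3a), at ranks 10 of 505 and 19 of 622. The PNRC2 entry had 192.2 (DMSO) and 376.2 (Nutlin-3a), at ranks 14 and 3. The median over each whole list was 17.2 (DMSO) and 22.6 (Nutlin-3a). Among entries within 5 kb of an end of a coding gene (154 DMSO and 204 Nutlin-3a), PNRC1 and PNRC2 held the first and second place in the DMSO list. In the Nutlin-3a list PNRC2 was first and PNRC1 held place 4, behind DNAJB12 (244.8) and DIP2A (235.01). A rank says where an entry stands in one list and shows no change between the lists.

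The entries with a higher −log10 q were mostly of another kind. In the DMSO list, 9 entries stood above PNRC1, all farther than 50 kb from any coding gene end, with widths of 50 to 430 bp and a median fold enrichment of 1.38. In the Nutlin-3a list, 2 entries stood above PNRC2, also farther than 50 kb from coding genes, with a median fold enrichment of 1.55. Of the 18 above PNRC1 in that list, 3 were within 5 kb of a coding gene end.

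Fold enrichment, the authors' ratio of ChIP signal over background, set the paralogues farther apart in rank than −log10 q did. The PNRC1 entry had a fold enrichment of 17.4 in the DMSO list (rank 5) and 4.75 in the Nutlin-3a list (rank 174). The PNRC2 entry had 6.34 in the DMSO list (rank 54) and 29.95 in the Nutlin-3a list (rank 2). PNRC1 was thus the higher of the pair in the DMSO list and PNRC2 in the Nutlin-3a list, the same order as by −log10 q. The 2 low values belonged to entries whose −log10 q was among the highest of their list. The median fold enrichment was 2.86 (DMSO) and 3.28 (Nutlin-3a), and 4.26 and 4.79 among entries within 5 kb of a coding gene end.

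**Figure D2:**
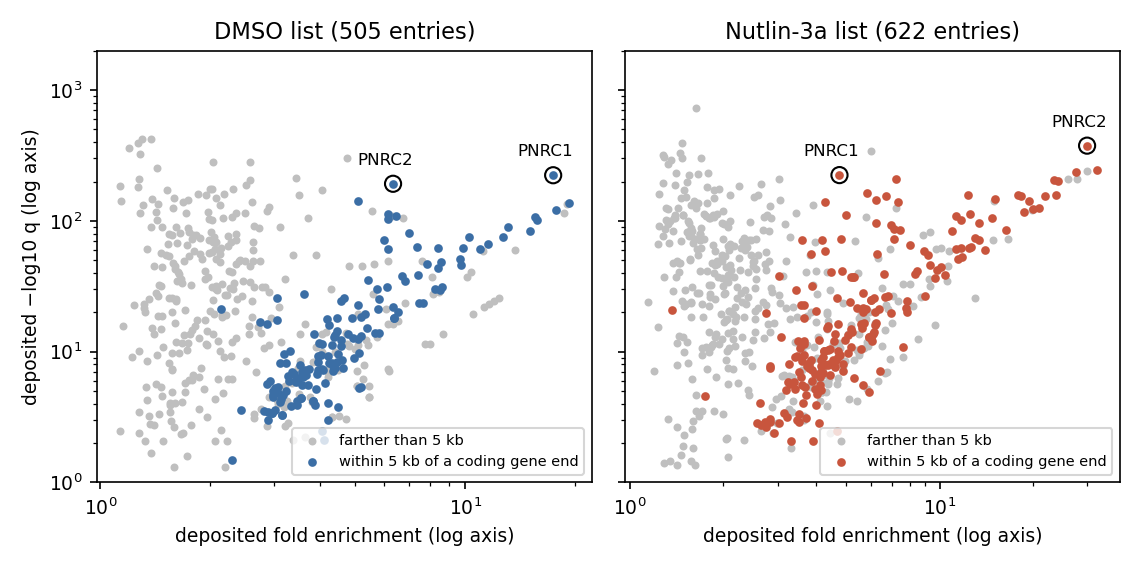
Deposited fold enrichment (horizontal) and −log10 q (vertical) for every entry of each list, both on log axes, with entries within 5 kb of a coding gene end in colour and PNRC1 and PNRC2 circled. PNRC1 in the DMSO list and PNRC2 in the Nutlin-3a list are high on both axes, and the other circled entries lie farther left, at a fold enrichment of 6.34 (PNRC2, DMSO) and 4.75 (PNRC1, Nutlin-3a), with a −log10 q of 192.2 and 223.95.

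The deposited statistics of all 4 entries are uncertain. By MACS2's definitions, the fold enrichment and p of a single position fix a pileup (the number of ChIP fragments over it), which should be a whole number. A whole number, within 0.05, came out for 409 of the 505 entries under DMSO and 411 of the 622 under Nutlin-3a, but for none of the 4. Among entries of 500 bp or wider, as all 4 were, it came out for only 14 of 37 (DMSO) and 21 of 65 (Nutlin-3a). Its absence was thus common among wide entries. Their solved pileups were 265.2 (PNRC1) and 445.7 (PNRC2) in the DMSO list, and 679.3 (PNRC1) and 347.8 (PNRC2) in the Nutlin-3a list. The solved background was 14.3 (PNRC1) and 69.4 (PNRC2) under DMSO, and 142.2 (PNRC1) and 10.6 (PNRC2) under Nutlin-3a. These backgrounds are derived from the fold enrichment and p, so they restate these columns and add no separate observation. Of the 101 pairs near coding genes, 24 had no whole-number pileup on either side, and both paralogues were among them.

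The summits differed along the same line. In the entries with the low fold, the summit lay 25 bp (PNRC2, DMSO) and 28 bp (PNRC1, Nutlin-3a) from the left edge, at 4.60% and 4.43% of the width. In the entries with the high fold it lay at 22.1% (PNRC1, DMSO) and 34.1% (PNRC2, Nutlin-3a). Among entries of 500 bp or wider, a summit in the first 5% of the width was found for 5 of 23 DMSO entries without a whole-number pileup and 0 of 14 with one. In the Nutlin-3a list it was found for 16 of 44 and 1 of 21. Whether the fold, the p-value and the summit of these entries stem from the same position, or from separate peak calls joined into 1 entry, was not tested. The −log10 q of the 4 entries, and the ranks, places and percentiles drawn from it, carry the same uncertainty as their fold enrichment. The interval edges and the midpoints do not rest on the summit column. Were an entry joined from separate calls, however, its edges, width and midpoint would be those of the joined interval. The midpoints lay 991 and 1019 bp after the start of PNRC1 and 82 and 93 bp before that of PNRC2 (DMSO and Nutlin-3a).

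**Figure D3:**
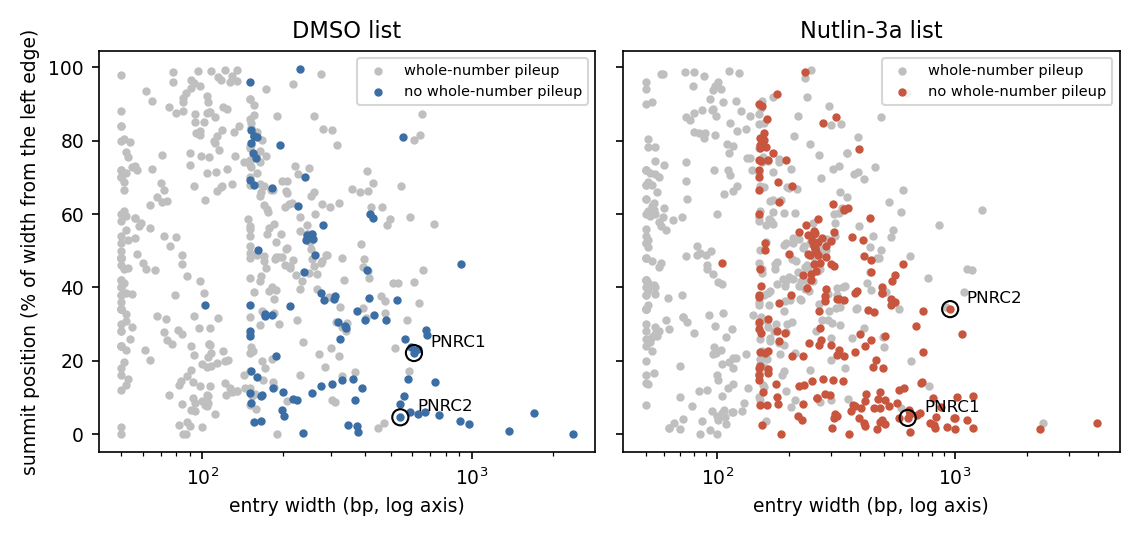
Position of the deposited summit, as a percent of the entry's width from its left edge, against width in bp on a log axis, with entries lacking a whole-number pileup in colour and PNRC1 and PNRC2 circled. PNRC2 in the DMSO list and PNRC1 in the Nutlin-3a list lie at 4.60% and 4.43%, near the left edge.

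The promoter stretches were searched on both strands. Neither held the full X-box or a 7-base RFX half-site, GTTGCCA or GTTGCTA, which 1.31% and 6.75% of 35116 RefSeq promoters of the same length held. Neither held a p53 response element (0.0285% of promoters). Each held 1 match of the 6-base core GTTGCC or GTTGCT, which lies within the 7-base half-sites and was found in 23.1% of promoters. At PNRC2 it covered chr1:23959720-23959725, 108 to 103 bp before the transcript start, under both entries. Its centre lay 23.5 bp from the midpoint of the DMSO entry and 12.5 bp from that of the Nutlin-3a entry, but 222.5 and 138.5 bp from the deposited summits. At PNRC1 it covered chr6:89080751-89080756, the first bases of the transcript, which lay under no entry.

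Each promoter also held 2 CCAAT boxes, a motif added after the sequences had been read and present in 34.6% of promoters. At PNRC2 they began 83 and 54 bp before the start and lay under both entries, and at PNRC1 they began 246 and 80 bp before it, outside them. The centre of the PNRC2 box at 83 bp lay 1 bp (DMSO) and 12 bp (Nutlin-3a) from the entry midpoints. That of the box at 54 bp lay 30 and 41 bp from them. The RFX core was thus not the only motif near the middle of these entries. The PNRC2 stretch was 67.3% G and C and the PNRC1 stretch 61.7%, against a median of 58.7% over all promoters. The sequence under the PNRC1 entries was not used here, so no motif can be given for that peak. A match is a run of letters and not a measured binding site.

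The neighbouring genes of both paralogues were alike in one respect. Downstream of PNRC1 lay SRSF12, 10798 bp from its end, and downstream of PNRC2 lay SRSF10, 884 bp from its end. Both encode serine/arginine-rich splicing factors, and both lie on the opposite strand, facing the PNRC gene with their 3′ ends. The transcript starts of these neighbours were far from the peaks: the DMSO and Nutlin-3a summits lay 36498 and 36588 bp from that of SRSF12 and 20827 and 20743 bp from that of SRSF10. The other coding genes within 50 kb were PM20D2, a peptidase gene 8779 bp past PNRC1, and CNR2, the cannabinoid receptor gene 45801 bp before PNRC2. PM20D2 was thus nearer to PNRC1 than SRSF12, and its extent covered that of SRSF12. All these neighbours had a summit within 50 kb only through the PNRC entries, and the PNRC gene was the nearest coding gene to each summit. The PNRC2 summits lay 4847 bp (DMSO) and 4763 bp (Nutlin-3a) from the nearer end of SRSF10.

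A divergent noncoding transcript, PNRC1-DT, starts at 89080580 on the other strand, 170 bp before PNRC1. It was 993 bp (DMSO) and 903 bp (Nutlin-3a) from the PNRC1 summits. The 4 annotated PNRC2 pseudogenes (PNRC2P1 to PNRC2P4 on chromosomes 1, 5 and 9) had 0 entries within 50 kb in either list. Over all coding genes the share with a summit within 50 kb was 2.03% (DMSO) and 3.04% (Nutlin-3a). A count of 0 among 4 is near that background, and nothing is read from it.

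The decapping and decay machinery in which the PNRC proteins act was examined by a list of 23 genes. Within 50 kb of an end, 1 gene of the list had a summit in the DMSO list (4.35%, against 2.03% of all coding genes) and 3 in the Nutlin-3a list (13.04%, against 3.04%). These were SMG6, an endonuclease of nonsense-mediated decay, in both lists, and DCP2 and EDC3 in the Nutlin-3a list. The SMG6 summits lay 44225 bp (DMSO) and 44245 bp (Nutlin-3a) away and closer to SGSM2. The EDC3 summit lay 32316 bp from this enhancer of decapping and 111 bp from ARID3B. Within 5 kb, only DCP2 had a summit, in the Nutlin-3a list (1 of 23 genes, 4.35%, against 1.08% of coding genes), and 0 of 23 had one in the DMSO list (against 0.764%). With so few genes, these shares were not tested, and no excess over the background is read from them.

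DCP2 encodes the enzyme that removes the mRNA cap. Its Nutlin-3a entry covered chr5:112976446-112976887 (442 bp), with the summit 142 bp upstream of the transcript start and all 300 promoter bases under it. This entry had a −log10 q of 16.3 and a fold enrichment of 4.71 and ranked 368 of 622 by −log10 q, far below both PNRC genes. It too had no whole-number pileup, so its values carry the same uncertainty as those of the PNRC entries. The nearest DMSO summit was 10401.1 kb away. Its absence from 1 list was not tested against replicate error. The DCP2 promoter held 1 of the 7-base half-sites and 5 CCAAT boxes. DCP1A and UPF1, which PNRC2 is known to bind, had no summit within 50 kb in either list.

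The receptor side was examined by 17 genes for nuclear receptors, the p160 coactivators NCOA1, NCOA2 and NCOA3, and the adaptor GRB2. Of these, 0 had a summit within 50 kb under either treatment. At the 2.03% and 3.04% of all coding genes, a list of this length would hold less than 1 gene, so this count is near the background.

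The genes most like PNRC1 and PNRC2 were sought among 95 coding genes that were nearest to an entry, within 5 kb, in each list. Likeness was the distance between the percentiles of −log10 q in both lists, so it is over 2 lists alone. PNRC1 stood at percentiles 98.2 (DMSO) and 97.1 (Nutlin-3a), and PNRC2 at 97.4 and 99.7. They lay 2.69 percentile points apart, the smallest distance for either, which follows largely from their selection as genes with very strong peaks in both lists and is no finding. Next came AKT1S1, the mTORC1 component PRAS40, at 94.1 and 96.6, and IP6K2, an inositol hexakisphosphate kinase, at 91.9 and 96.1.

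AKT1S1 lay 4.19 points from PNRC1 and 4.55 from PNRC2. Its −log10 q was 143.1 (DMSO) and 208.7 (Nutlin-3a), its fold enrichment was 5.08 and 7.21, and neither of its entries had a whole-number pileup. IP6K2 lay 6.41 points from PNRC1 and 6.58 from PNRC2, with a −log10 q of 120.7 and 200.3. Its fold enrichment was high in both lists (17.8 and 24.1), unlike that of either PNRC gene. A whole-number pileup came out for its DMSO entry but not for its Nutlin-3a entry, whose values are therefore uncertain as well. Its promoter held a 7-base half-site that lay, like all 300 bases, under both of its entries. The contrast in fold enrichment between the lists was not particular to the PNRC genes. DNAJB12 had 6.15 (DMSO) and 32.3 (Nutlin-3a), DIP2A 6.46 and 27.5, and MXD4 19.3 and 4.27.

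**Figure D4:**
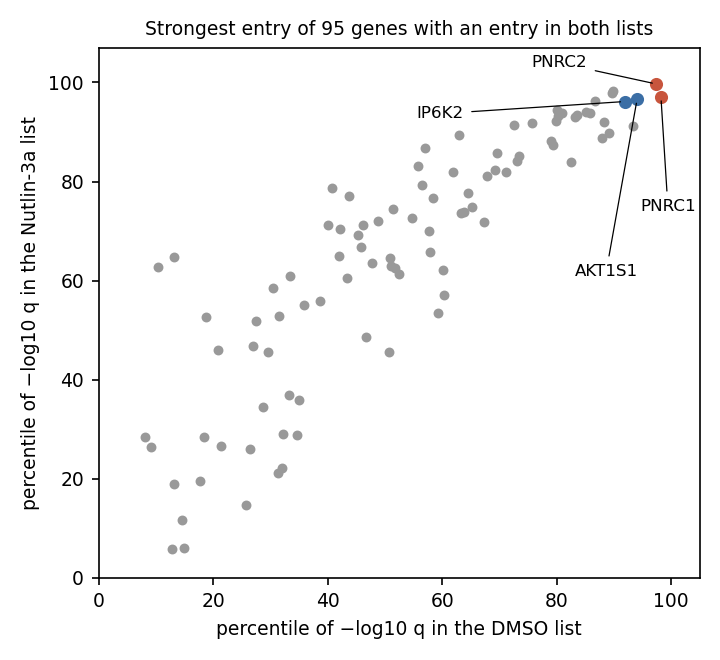
Percentile of −log10 q under DMSO (horizontal) and under Nutlin-3a (vertical) for the strongest entry of each of 95 coding genes with an entry within 5 kb in both lists. PNRC1 and PNRC2 (red) lie at the upper right, 2.69 points apart, with AKT1S1 and IP6K2 (blue) next to them.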

How the data were processed

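The files are narrowPeak tables without header lines, 1 for each treatment, as deposited by the authors. Per the submitters' processing notes, MACS2 2.2.7.1, bedtools 2.29.2 and the build hg38 were used. The settings and any pooling of replicates are not given in the sources used here. The fold enrichment of each peak (a ratio), its −log10 p and −log10 q, and a score equal to 10 times −log10 q are the authors' values as deposited and serve here as descriptions or ranks inside one list. Read depth is unknown.

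Positions are 1-based. Ranks, overlaps (at least 1 bp), distances and motif matches were computed with pandas 2.3.3 and scipy 1.17.1, and the code was tested on simulated data. Genes, starts and promoter sequences came from RefSeq (GRCh38.p14). The promoter table held several starts for some genes and was used as given. The X-box was searched as its RFX consensus, with 0 to 3 bases between the half-sites, and the p53 element as its decamer pair.

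No test was made, since the rule used the peak values. The genes and lists were chosen with earlier results of these data known. Named genes were PNRC1, PNRC2, coding neighbours within 50 kb, list genes with a summit within 50 kb, and the 3 genes most like each. DNAJB12, DIP2A and MXD4, ARID3B and SGSM2, PNRC1-DT and the pseudogenes, and DCP1A and UPF1 were added after their values were seen. A planned comparison of protein sequences was not run. Alternatives are given in the closing section.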

Additional observations from a re-analysis of the deposited data

How the results depend on the processing

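No paired analysis was possible because the lists carry no values for single replicates, and for the same reason no replicate was left out. Of 46 alternative values, 27 stayed near the reported one. The number of entries at each gene stayed 1 in each list with windows of 5, 10 and 100 kb, with midpoints in place of summits and among entries with −log10 q from 10 upward, and the entries still overlapped by 50% of both and had summits within 100 bp. The genes were chosen for very strong peaks, and their summits lay 336 to 822 bp from a gene end. The smaller windows, the midpoints and the −log10 q cut could therefore hardly change the number of entries, and no support is drawn from them. Ranked by −log10 p or −log10 q in place of fold enrichment, PNRC1 moved to rank 10 (DMSO) and 19 (Nutlin-3a) and PNRC2 to rank 14 and 3. Midpoints lay 991 and 1019 bp from the nearer end of PNRC1 and 582 and 571 bp from that of PNRC2. The share of coding genes with a summit fell to 0.764% (DMSO) and 1.08% (Nutlin-3a) at 5 kb, and to 1.28% (DMSO) when −log10 q had to reach 10. The decay list went to 0 (DMSO) and 1 (Nutlin-3a) at 5 kb. The share of promoters with a half-site was 23.1% with 6-base cores and 3.9% for 7-base sites within 150 bp upstream of the start. The cause was not tested for any of these. Without depth or replicate values, no difference between the lists can be given an error.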

Other observations

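The PNRC2 promoter was 1 of 67 RefSeq promoters that lay at least in part under an entry of both lists. Of these, 48 held the 6-base core GTTGCC or GTTGCT (71.6%, against 23.1% of all promoters) and 54 held a CCAAT box (80.6%, against 34.6%). The 7-base half-sites were found in 16 of the 67 (23.9%, against 6.75%) and the full X-box in 1 (1.49%, against 1.31%). These promoters had a median G and C content of 66%, against 58.7% over all promoters, and several can belong to the same gene or share a peak, so the shares are given without a test.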
